A study of Bos taurus with 48 samples.

Results

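The breed difference before weaning was measured in whole blood drawn on d -14, the day before milk was gradually withdrawn, from 8 Holstein-Friesian (H-F) and 8 Jersey (J) artificially reared bull calves. These 16 libraries, 1 for each calf, were chosen by the breed and day in the sample labels and are part of the 48 libraries of the series, in which the same 16 calves were sampled again on d 1 and d 8. The comparison asks how the blood transcriptome of the breeds differed while all calves were still fed milk, so it forms the baseline of a study of weaning. Unless stated otherwise the values are for 8 H-F and 7 J calves, because the study removed J calf 85 from its analyses, and all 16 calves were used as an alternative. The H-F calves shared a farm of origin, the J calves came from a pair of other farms, and the J calves were older and lighter at arrival. Concentrate was offered ad libitum to J calves and up to a maximum to H-F calves, but by the study's methods the H-F calves never ate that maximum, so the offer was in effect alike. The study also measured greater passive immunity from the dam in J calves, in serum taken at arrival. Breed, farm of origin, age, body weight and passive immunity therefore cannot be told apart in this comparison. A calf is an independent animal, so the spread given here is between animals.

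Whole blood RNA mixes the transcripts of neutrophils, monocytes, lymphocytes, eosinophils, platelets and red cell precursors. B cells carry the antigen receptor and its CD79 partners and MS4A1 (CD20), cytotoxic lymphocytes store granzymes, and platelets carry chemokines and adhesion receptors made by megakaryocytes. Interferons act on nearly all of these cells and switch on a shared set of antiviral genes, and classical major histocompatibility complex (MHC) class I molecules, which differ greatly between individual cattle, present peptides to T cells.

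The d -14 libraries held 29523316 to 36128930 counted reads, and the ranges of the breeds overlapped. Spike-in sequences took between 0.184% and 0.223% of the counts, except in J calf 77, where they took 0.309%. On the leading dimension of a multidimensional scaling of all 16 libraries, which held 20.9% of the variation, the H-F calves lay between -0.88 and -0.27 and the J calves between 0.39 and 0.81. On the next dimension, with 9.4% of the variation, J calves 57, 77 and 85 lay between 0.50 and 0.75 and the other J calves between -0.47 and -0.20. The J calves thus stood apart among themselves, and the labels do not say which of them shared a farm.

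Of 12677 genes tested, 531 (4.19%) were differentially expressed genes (DEG), meaning that they differed at least 1.5-fold and passed a false discovery rate of 0.1 by Benjamini and Hochberg's method in edgeR's quasi-likelihood (QL) test. In J relative to H-F calves, 206 genes (1.62%) were transcriptionally increased and 325 (2.56%) were decreased. Most of the differences were small, with a median fold of 1.75 for the increased and 1.71 for the decreased genes. At least 2-fold differences were seen for 68 increased and 79 decreased DEG, and at least 4-fold differences for 10 and 16. The DEG had a median level of 5.54 CPM (counts scaled to a common library size), against 27.7 CPM over all genes tested, so many of them were of low abundance. The split between directions depended on the scaling, since 38.8% of the DEG were increased in J calves with TMM factors and 49.3% when libraries were scaled by their totals alone, which moved the median log2 difference of all genes from 0.01 to 0.05.

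**Figure D1:**
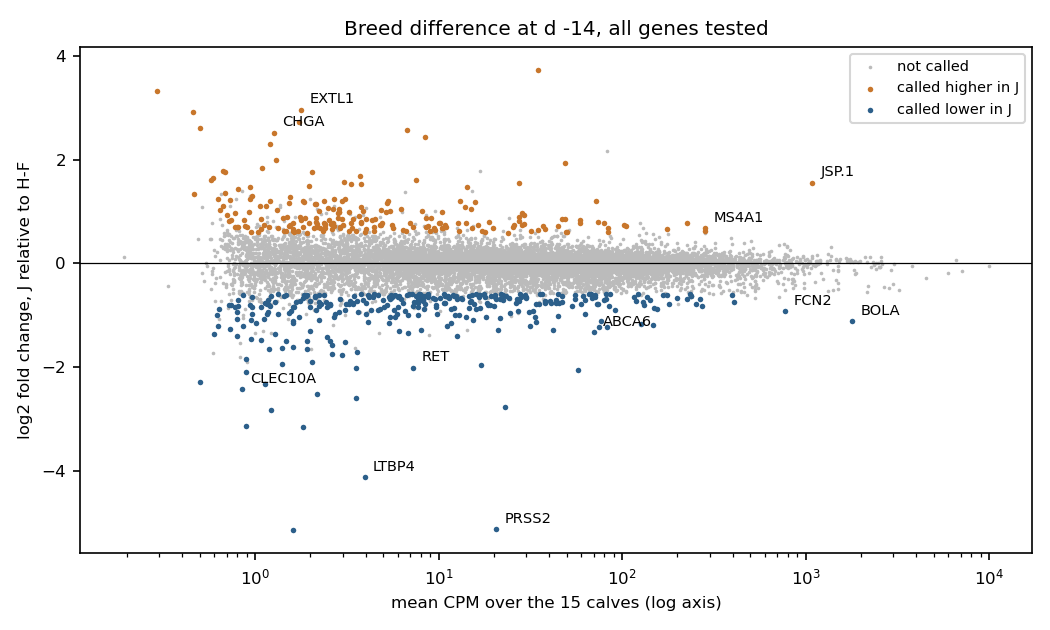
Log2 fold change (J over H-F) at d -14 for each of the 12677 genes tested (vertical axis) against the mean CPM over the 15 calves (horizontal log axis). Grey points were not called, orange points were the 206 genes increased and blue points the 325 genes decreased in J calves, and JSP.1 and BOLA are the most abundant of the labelled genes.

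Genes whose calves did not overlap between breeds were rare. The lowest J calf lay above the highest H-F calf for 56 genes (0.442%) and the highest J calf below the lowest H-F calf for 87 genes (0.686%), and 19 and 40 of these were DEG. With all 16 calves these counts were 38 and 93, and 5.14% of genes were DEG. J calf 85, which did not enter the fit, lay above the H-F median for 192 of the 206 increased genes (93.2%) and below it for 312 of the 325 decreased genes (96.0%). Over all genes tested it lay above that median for 46.6% and below it for 53.4%. The H-F values in this comparison were those that chose the DEG, so only the value of the J calf was independent of that choice.

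Among the 12 increased genes with a symbol that had the smallest p, CHGA and EXTL1 had the largest folds. CHGA, which encodes chromogranin A, a protein of secretory granules, had 0.193 CPM in the lowest, 0.420 in the median and 0.588 in the highest H-F calf, and 0.982, 2.35 and 3.87 CPM in J calves. The J calves did not overlap the H-F calves (log2 difference 2.52, SE 0.28, QL adjusted p = 0.00158). EXTL1, a glycosyltransferase of heparan sulphate synthesis, ranged from 0.0931 to 1.45 CPM in H-F calves with a median of 0.245, and from 1.54 to 4.72 CPM in J calves with a median of 3.46. It also separated the breeds (log2 difference 2.96, SE 0.46, QL adjusted p = 0.00486). For both genes the calf that was left out went the other way, with 0.147 CPM of CHGA and 0.0586 CPM of EXTL1, below every H-F calf.

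More abundant genes of this group differed by less but with a smaller spread. FTSJ2, which encodes a methyltransferase of mitochondrial ribosomal RNA, had 17.9 to 25.9 CPM in H-F calves (median 21.3) and 29.9 to 46.6 CPM in J calves (median 37.4), with a log2 difference of 0.76 (SE 0.10, QL adjusted p = 0.00202). MMP28, a matrix metalloproteinase, had 4.64 to 8.37 CPM (median 6.51) in H-F and 8.87 to 14.2 CPM (median 11.8) in J calves. FBLN2, an extracellular matrix protein, had 0.688 to 1.81 CPM (median 0.969) in H-F and 2.43 to 2.99 CPM (median 2.52) in J calves. These 3 genes showed no overlap, and the left-out calf lay within or above the J range for FTSJ2, MMP28 and FBLN2. KCTD11, DOC2G, ADGRA3, KCNK10, HEATR9, BACH2 and JSP.1 made up the rest of the 12, with log2 differences from 0.73 for BACH2 to 1.78 for HEATR9. HEATR9 was the only gene of these 7 without overlap. ADGRA3, an adhesion G protein-coupled receptor, had a median of 1.48 CPM in H-F and 5.25 CPM in J calves but 1.23 CPM in the left-out calf.

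The 12 decreased genes with a symbol that had the smallest p all separated the breeds completely. ABCA6, a transporter of the ABC family, had 65.1, 94.1 and 139.0 CPM in the lowest, median and highest H-F calf and 28.6, 39.6 and 53.9 CPM in J calves (log2 difference -1.32, SE 0.17, QL adjusted p = 0.00202). RET, the receptor tyrosine kinase for ligands of the glial cell line-derived neurotrophic factor family, had 5.03 to 17.6 CPM in H-F calves (median 11.7) and 1.44 to 4.50 CPM in J calves (median 2.90), a log2 difference of -2.01 (SE 0.28, QL adjusted p = 0.00331). The left-out calf, with 4.13 CPM of RET, lay in the J range. PAPSS2, which makes the sulphate donor of the cell, had 76.9 to 118.0 CPM (median 86.9) in H-F and 40.8 to 64.4 CPM (median 53.1) in J calves. CALCRL, part of the receptors for adrenomedullin and calcitonin gene-related peptide, had 32.2 to 48.7 CPM (median 39.4) in H-F and 14.1 to 28.4 CPM (median 21.7) in J calves. E2F2, a transcription factor of the cell cycle, had 25.4 to 31.9 CPM (median 29.7) and 14.2 to 23.8 CPM (median 17.7), and here the left-out calf had 25.1 CPM and lay just below the H-F range. The others were BOLA, PRSS2, CLEC10A, DHRS7, PLOD1, KCNE3 and CLIC5, with log2 differences from -0.66 for CLIC5 to -5.11 for PRSS2.

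**Figure D2:**
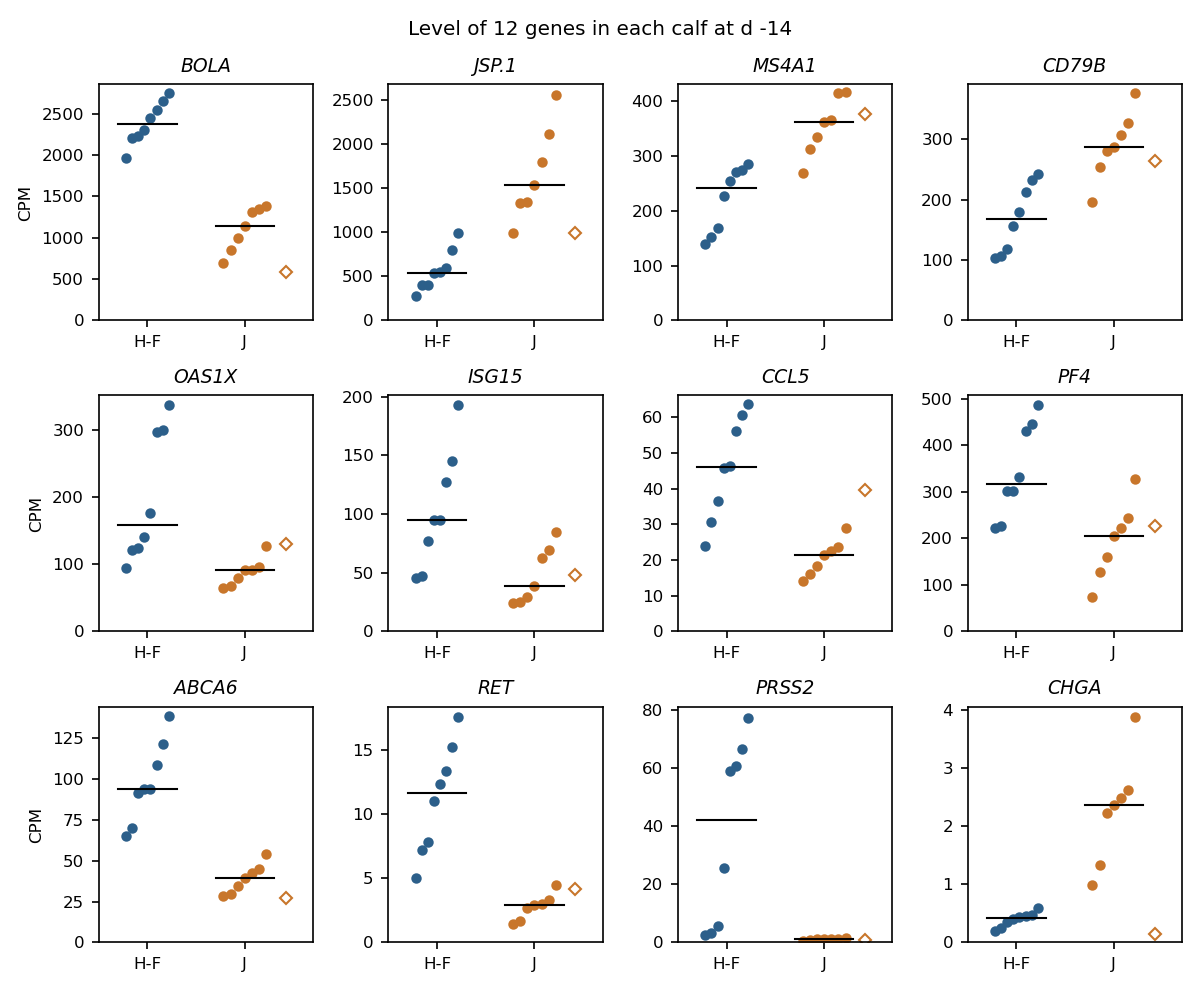
CPM (vertical axis, from 0) of 12 genes in each calf at d -14, with H-F calves in blue, the 7 J calves of the fit in orange, a black line at the median and J calf 85, which was left out, as an open diamond. BOLA, ABCA6, RET, PRSS2 and CHGA show no overlap between the 8 H-F and 7 J calves, and the other 7 genes overlap.

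The most abundant DEG were MHC class I genes, and they went in opposite directions. BOLA, a class I gene, had 1968, 2378 and 2744 CPM in the lowest, median and highest H-F calf and 689.5, 1145 and 1387 CPM in J calves, so that every J calf was below every H-F calf (log2 difference -1.11, SE 0.14, QL adjusted p = 0.00202). JSP.1, another class I gene, had 272.5, 543.2 and 996 CPM in H-F calves and 996, 1543 and 2565 CPM in J calves, and the lowest J calf met the highest H-F calf (log2 difference 1.56, SE 0.25, QL adjusted p = 0.00604). BOLA-NC, a non-classical class I gene, was decreased, from a median of 535.8 CPM in H-F to 290.4 CPM in J calves (log2 difference -0.74, SE 0.18, QL adjusted p = 0.0215). Class I genes are near-identical copies and vary between individuals, and the counts rest on uniquely mapped reads with few mismatches to a single reference genome, so how reads were shared among these genes is uncertain and was not tested. For the removed calf BOLA was 582.8 CPM, below the other J calves, and JSP.1 was 990.1 CPM, just below the J range.

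Of the 42 symbols of the antigen presentation list, 6 could be matched to an identifier, of which 3 were increased and 3 decreased. Symbols were known only for genes that the study itself called on at least 1 of its sampling days, here and for every list in this section. The share of members called is therefore far above the 4.19% of all genes by this choice, and list counts are not independent evidence of a direction. The medians and summed levels of the lists were shaped by the same choice. Besides the class I genes, CIITA, the master regulator of MHC class II genes, was increased, with 170.3 to 295.4 CPM (median 234.4) in H-F and 211.3 to 444.4 CPM (median 372.7) in J calves (log2 difference 0.62, SE 0.14, QL adjusted p = 0.0192). BOLA-DOB, a chain of the class II peptide-loading regulator of B cells, was increased from a median of 54.3 to 100.6 CPM (log2 difference 0.80, SE 0.19, QL adjusted p = 0.0197). CD274, which encodes the checkpoint ligand PD-L1, and CD1A, a lipid-presenting molecule, were decreased by 0.62 and 1.90 on the log2 scale. Neither CD274 nor CD1A stayed a DEG without J calf 13. CD274 was also lost without H-F calf 25 or 27, with scaling by totals, and with all 45 libraries, both without and with calf as a replicate block (adjusted p = 0.110 and 0.226). CD1A was also lost with limma-voom or without any 1 of H-F calves 33 and 32 or J calves 57, 6, 77 and 9, and CIITA was lost without any 1 of H-F calves 48 and 32 or J calf 60.

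Matched B cell genes were mostly transcriptionally increased in J calves. Of 28 B cell symbols 13 were matched, and 11 of them were increased, 0 were decreased and 2 were not called, with a median log2 difference of 0.72. The median over all genes was 0.01, but these members were matched because the study had called them, so the medians cannot be compared. MS4A1 had 138.5, 240.8 and 284.9 CPM in the lowest, median and highest H-F calf and 268.8, 361.3 and 415.8 CPM in J calves (log2 difference 0.68, SE 0.16, QL adjusted p = 0.0197). CD79B, a signalling chain of the B cell receptor, had 104.1, 167.7 and 243.3 CPM in H-F and 195.5, 287.2 and 377.4 CPM in J calves (log2 difference 0.78, SE 0.19, QL adjusted p = 0.0240). For both genes the median J calf was above every H-F calf although the ranges overlapped. TNFRSF13C, the receptor for the survival factor BAFF, had a median of 3.78 CPM in H-F and 7.12 CPM in J calves.

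The differences were of similar size across the list, from 0.58 for CD22, an inhibitory receptor that missed the fold threshold (QL adjusted p = 0.0272), to 0.99 for TNFRSF13C. BACH2, a transcriptional repressor in lymphocytes, had the smallest p of the list, with 17.6 to 26.7 CPM (median 21.5) in H-F and 25.4 to 40.5 CPM (median 38.4) in J calves (log2 difference 0.73, SE 0.11, QL adjusted p = 0.00425). VPREB3 did not pass the test (log2 difference 0.72, SE 0.34, QL adjusted p = 0.175). Other increased members were FCRL1, BTLA, CXCR5, EBF1, PAX5 and BANK1, the last 3 named only to complete the count, after their values were seen. Of these, BTLA was no longer called without J calf 57 or 9, CXCR5 without any 1 of H-F calves 33 and 32 or J calf 9, and the whole count was 8 to 13 when each calf was left out in turn. Summed over the 13 members, H-F calves had 603.9 to 1248 CPM with a median of 994.3, and J calves 1069 to 1815 CPM with a median of 1473. The left-out calf had 1583 CPM. In whole blood, more cells of a type and more RNA per cell cannot be told apart.

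**Figure D3:**
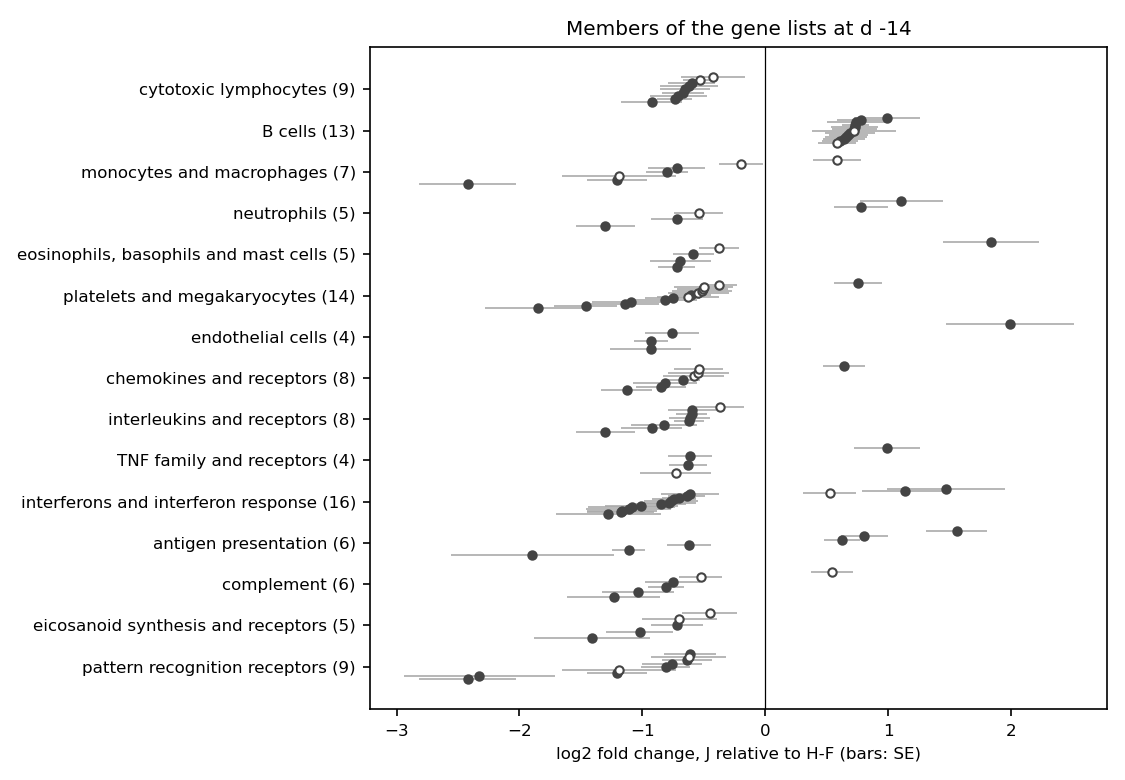
Log2 fold change (J over H-F) at d -14 (horizontal axis, bars are SE) for the matched members of each gene list with at least 4 of them, the number in brackets. Filled circles are DEG and open circles are not. The B cell members lie between 0.58 and 0.99, and the cytotoxic lymphocyte members between -0.93 and -0.43.

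The matched interferon-induced genes were mostly decreased in J calves. Of 46 symbols in the interferon list 16 were matched, of which 13 were decreased, 2 were increased and 1 was not called, with a median log2 difference of -0.78. OAS1X and OAS1Y, antiviral oligoadenylate synthetases, had medians of 158.7 and 165.9 CPM in H-F calves and 91.2 and 72.6 CPM in J calves. Their log2 differences were -1.18 (SE 0.27, QL adjusted p = 0.0186) and -1.17 (SE 0.29, QL adjusted p = 0.0225), and as near copies they may share reads. RSAD2, which encodes the antiviral protein viperin, had 28.2 to 103.8 CPM (median 58.7) in H-F and 17.2 to 49.2 CPM (median 29.3) in J calves (log2 difference -1.01, SE 0.30, QL adjusted p = 0.0430). ISG15, a ubiquitin-like modifier, had 45.4 to 192.7 CPM (median 95.2) in H-F and 24.4 to 84.9 CPM (median 38.6) in J calves (log2 difference -1.11, SE 0.35, QL adjusted p = 0.0512).

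The ranges of the breeds overlapped for these genes. OAS1X was 297.3 to 338.4 CPM in H-F calves 33, 25 and 27 and 94.6 to 176.5 CPM in the other H-F calves, while the J calves lay within 64.5 and 126.8 CPM. OAS2 had the largest decrease of the list (log2 difference -1.28, SE 0.43, QL adjusted p = 0.0647), and it was not a DEG without any 1 of H-F calves 33 and 25 or J calves 13 and 57, or with limma-voom. With calf as a replicate block over all 45 libraries (limma-voom), neither ISG15 (adjusted p = 0.106) nor OAS2 (adjusted p = 0.139) was called. SIGLEC1, a sialic acid receptor of monocytes and macrophages that interferon induces, was decreased by 1.09 on the log2 scale and was lost without H-F calf 33 or J calves 13 and 57. The count of decreased members was 10 to 13 when each calf was left out in turn.

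A pair of members went the other way. IFNB1, encoding interferon beta itself, was increased, with 0.457 to 2.68 CPM (median 1.26) in H-F and 1.44 to 5.21 CPM (median 2.95) in J calves (log2 difference 1.14, SE 0.35, QL adjusted p = 0.0485). IFI27, an interferon-induced gene, had 2.81 to 18.6 CPM (median 6.17) in H-F and 3.38 to 50.6 CPM (median 19.1) in J calves. It was increased (log2 difference 1.47, SE 0.48, QL adjusted p = 0.0604), but not without any 1 of H-F calves 33 and 32 or J calf 9. The left-out calf had 2.73 CPM of IFI27, near the lowest H-F calf and below the J range. With all 16 calves the adjusted p of IFI27 was close to the threshold (QL adjusted p = 0.0992). GBP4, an interferon-induced GTPase, had a log2 difference of 0.52 and did not pass the test (QL adjusted p = 0.123).

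Summed over the 16 members, H-F calves had 1098 to 2441 CPM with a median of 1644 and J calves 789.1 to 1285 CPM with a median of 948.1. The left-out calf, with 1031 CPM, lay in the J range. Monocytes and macrophages respond to interferon, and 7 members of their list were matched, none of them at 0 in a calf. These summed to 311.9 to 460.0 CPM (median 342.3) in H-F and 185.2 to 377.2 CPM (median 322.9) in J calves. Most of the sum came from AIF1 (means 163.6 CPM in H-F and 93.9 CPM in J calves) and TNFAIP2 (110.1 and 164.9 CPM). These 2 genes went in opposite directions, so the sum does not describe the list. The part of monocytes and macrophages in the interferon result was not tested.

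**Figure D4:**
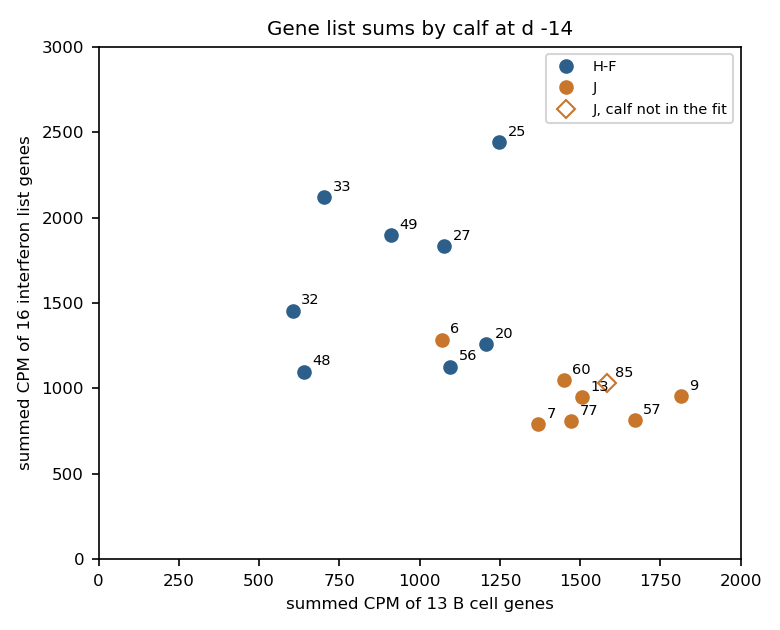
Summed CPM of the 16 matched interferon list members (vertical axis) against summed CPM of the 13 matched B cell members (horizontal axis) in each calf at d -14, with calf numbers. H-F calves (blue) spread from 1098 to 2441 CPM on the vertical axis, and the 7 J calves (orange) from 1069 to 1815 CPM on the horizontal axis, with J calf 85 as an open diamond.

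On the later sampling days most of the decreased interferon members had log2 differences nearer to 0, with CXCL10 on d 1 as an exception. These members were chosen by their call at d -14. Genes chosen on a given day tend to differ less on other days for that reason alone. Whether the breed difference faded therefore cannot be read from these values. The 13 members decreased at d -14 had log2 differences of -1.18 to 0.01 on d 1 and of -0.76 to -0.16 on d 8, when each day was fitted by itself, and 2 and 1 of them were called then. On those days 3.06% and 2.58% of all genes were DEG. OAS1X had mean levels of 199.8 ± 96.2 CPM (SD, n = 8) in H-F and 88.3 ± 20.9 CPM (SD, n = 7) in J calves at d -14, against 173.9 ± 96.1 and 133.8 ± 47.4 CPM on d 1. The H-F mean was lower and the J mean higher on d 1 than at d -14. The change in the breed difference itself did not pass the test for any gene. In a limma-voom fit whose random effect was the calf, 0 genes had an adjusted p under 0.1 for d -14 against d 1 or d 8. An unadjusted p under 0.05 was seen for 569 and 898 of the 12677 genes tested. With no true change, a share of 0.05 of all genes would lie under that p. For OAS1X the difference at d -14 was lower by 0.73 on the log2 scale than on d 1 (limma adjusted p = 0.975) and by 0.75 than on d 8 (limma adjusted p = 0.694). For the B cell list the median log2 difference was 0.51 on d 1 and 0.52 on d 8. Most B cell members were DEG at d -14, so the same limit of selection holds for them. MS4A1 differed by 0.38 and 0.35 on those days, and its change against d -14 did not pass the test (limma adjusted p = 0.975 and 0.694).

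**Figure D5:**
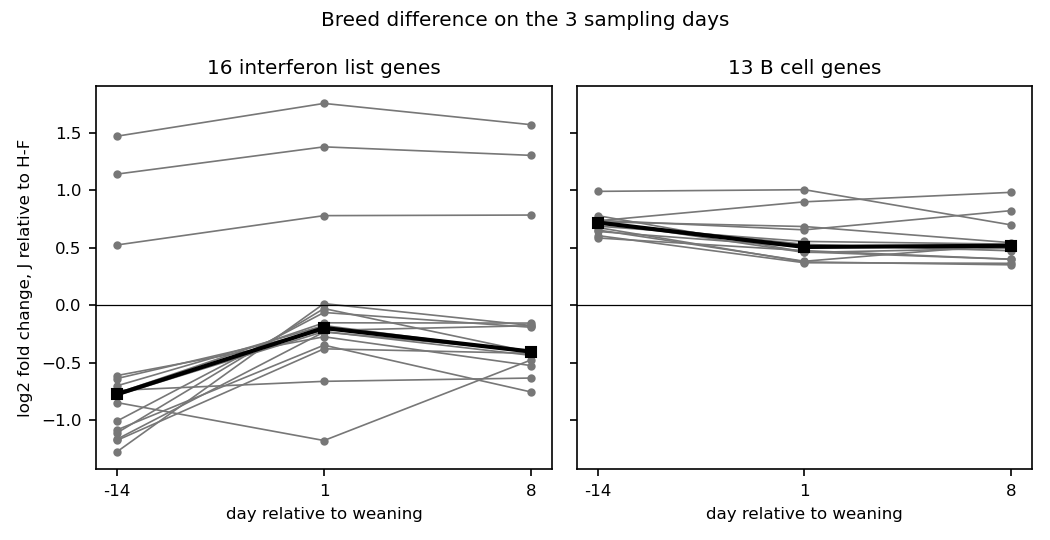
Log2 fold change (J over H-F) (vertical axis) on each sampling day (horizontal axis, day relative to weaning), each day fitted by itself, for the 16 matched interferon list members (left) and 13 matched B cell members (right). Grey lines join the values of a gene and the black squares are the medians, which were -0.78, -0.20 and -0.40 for the interferon list and 0.72, 0.51 and 0.52 for the B cell list.

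The matched genes of cytotoxic lymphocytes were mostly decreased. Of 34 symbols 9 were matched, 7 of them decreased and 2 not called, with a median log2 difference of -0.65. KLRB1, a lectin-like receptor of natural killer cells, had 5.97 to 11.8 CPM (median 8.50) in H-F and 4.27 to 5.93 CPM (median 5.77) in J calves and did not overlap (log2 difference -0.74, SE 0.14, QL adjusted p = 0.0114), although the left-out calf, at 7.504 CPM, lay among the H-F calves. IL18RAP, a chain of the interleukin-18 receptor, had a median of 7.34 CPM in H-F and 4.13 CPM in J calves (log2 difference -0.93, SE 0.25, QL adjusted p = 0.0289). The granzymes GZMA and GZMM, proteases of cytotoxic granules, were decreased by 0.71 and 0.65, and NCR1, an activating receptor of natural killer cells, by 0.67 on the log2 scale. GZMB had a log2 difference of -0.43 (SE 0.26) and did not pass the test (QL adjusted p = 0.290). FCGR3A, an Fc receptor of these cells and of monocytes, was decreased by 0.62 with an adjusted p close to the threshold (QL adjusted p = 0.0919), and it was lost without any 1 of H-F calves 33, 25, 48, 20 and 32 or J calves 13, 57, 60, 77 and 7, and likewise with no filter or with scaling by totals. GZMA was lost without any 1 of H-F calves 49 and 32 or J calves 13, 57 and 60, GZMM without J calf 13 and NCR1 without H-F calf 49. The count of 7 fell to 3 without J calf 13 and to 4 without J calf 57 or 60. Summed levels were 295.4 to 489.5 CPM (median 365.9) in H-F and 152.2 to 377.3 CPM (median 266.8) in J calves. FCGR3A made up most of these sums, with means of 284.6 CPM in H-F and 185.1 CPM in J calves. The sums therefore mainly describe that gene.

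Of 46 symbols for chemokines and their receptors 8 were matched, with 4 decreased and 1 increased, and of 48 interleukin symbols 8 were matched, with 7 decreased and 0 increased. CCL5, a chemokine that attracts T cells, had 24.0 to 63.7 CPM (median 46.1) in H-F and 14.2 to 29.0 CPM (median 21.4) in J calves (log2 difference -1.13, SE 0.20, QL adjusted p = 0.00926), and the left-out calf had 39.6 CPM. CXCL16 and CXCL10, chemokines of activated myeloid cells, were decreased by 0.67 and 0.85 on the log2 scale. IL1R2, a decoy receptor for interleukin-1 carried by neutrophils, had 6.76 to 12.01 CPM (median 8.15) in H-F and 1.43 to 5.62 CPM (median 3.24) in J calves, without overlap (log2 difference -1.30, SE 0.24, QL adjusted p = 0.0101). IL1B, the cytokine it binds, had a log2 difference of -0.37 (SE 0.20) and did not pass the test (QL adjusted p = 0.224). IL27, IL17RC, IL15RA and IL23R were decreased by 0.62, 0.61, 0.60 and 0.83, but IL27 was lost without H-F calf 33 or J calves 13 and 57, IL17RC without any 1 of H-F calves 33 and 32 or J calves 13 and 57, IL23R without H-F calf 25 or J calf 13, and IL15RA in 9 of the 15 fits that left out 1 calf. The interleukin count of 7 fell to 2 without J calf 13, to 3 without J calf 57 or H-F calf 33 and to 4 without H-F calf 25. With libraries scaled by totals the interleukin count was 3. Of 4 matched members of the tumour necrosis factor list, TNFRSF13C was increased, TNFSF9 and TNFSF12 were decreased and TNFSF13B was not called, and neither decrease was called without J calf 13 or with scaling by totals.

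Of 30 monocyte and macrophage symbols 7 were matched, with 4 decreased, 0 increased and 3 not called. MSR1, a scavenger receptor of macrophages, had 8.81 to 24.9 CPM (median 13.7) in H-F and 4.49 to 9.06 CPM (median 5.59) in J calves (log2 difference -1.21, SE 0.25, QL adjusted p = 0.0125). AIF1, a calcium-binding protein of monocytes, had 120.0 to 196.8 CPM (median 173.8) and 55.5 to 118.0 CPM (median 101.7), without overlap (log2 difference -0.80, SE 0.17, QL adjusted p = 0.0143). CLEC10A, a galactose-binding lectin of macrophages and dendritic cells, had a median of 1.34 CPM in H-F and 0.155 CPM in J calves (log2 difference -2.42, SE 0.40, QL adjusted p = 0.00677). LPL, lipoprotein lipase, was decreased by 0.72. The list did not move as a whole, since MERTK, a receptor for apoptotic cells, had a log2 difference of -0.20 (QL adjusted p = 0.500) and TNFAIP2 one of 0.58, just under the fold threshold (QL adjusted p = 0.0617).

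Of 9 matched pattern recognition receptors, 7 were decreased and 0 increased, among them CLEC12A, an inhibitory lectin of myeloid cells, from a median of 104.6 to 60.01 CPM (log2 difference -0.81, SE 0.20, QL adjusted p = 0.0225). PTX3, a soluble pentraxin released by neutrophils and macrophages, was decreased by 2.33 (SE 0.61, QL adjusted p = 0.0281). Without H-F calf 33 or J calf 13 the count of this list was 4. Among complement genes 4 of 6 matched members were decreased and 0 increased. C2, a component of the classical pathway, had 59.4 to 163.6 CPM (median 104.7) in H-F and 10.7 to 91.0 CPM (median 45.2) in J calves (log2 difference -1.23, SE 0.38, QL adjusted p = 0.0493), and CFB, factor B of the alternative pathway, had medians of 6.74 and 3.47 CPM. FCN2, a ficolin that starts the lectin pathway, was one of the most abundant decreased genes, with 642.3 to 1672 CPM (median 862.0) in H-F and 298.6 to 782.1 CPM (median 557.4) in J calves (log2 difference -0.91, SE 0.25, QL adjusted p = 0.0338). C5AR1, a receptor for the anaphylatoxin C5a, had a log2 difference of -0.53 and was below the fold threshold (QL adjusted p = 0.0582). Of 5 matched eicosanoid genes 3 were decreased and 0 increased, among them PTGS2, the inducible cyclooxygenase, by 1.02 and LTB4R, a receptor for leukotriene B4, by 0.72 on the log2 scale.

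Granulocyte genes did not share a direction. Of 5 matched neutrophil members IL1R2 and LTB4R were decreased, whereas MPO and LCN2, granule proteins made at early stages of neutrophil formation, were increased. LCN2 had 5.13 to 15.4 CPM (median 10.04) in H-F and 12.98 to 22.5 CPM (median 18.8) in J calves (log2 difference 0.78, SE 0.22, QL adjusted p = 0.0383), and MPO medians of 0.648 and 1.40 CPM (log2 difference 1.11, SE 0.34, QL adjusted p = 0.0478). CXCR2, the chemokine receptor of mature neutrophils, had a log2 difference of -0.54 and missed the fold threshold (QL adjusted p = 0.0857). Among 5 matched genes of eosinophils, basophils and mast cells, PRG3, a granule protein, was increased by 1.84 (SE 0.39, QL adjusted p = 0.0143). ADORA3, an adenosine receptor, was decreased by 0.72 (SE 0.15, QL adjusted p = 0.0142). SIGLEC8 and HRH4 were also decreased, but they were lost in 9 and 7 of the 15 fits that left out 1 calf, and the 3 decreased members became 1 without any 1 of H-F calves 33 and 32 or J calf 9.

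Among platelet genes 7 of 14 matched members were decreased, 1 was increased and 6 were not called, with a median log2 difference of -0.62 and summed levels of 464.6 to 862.2 CPM in H-F and 203.9 to 553.1 CPM in J calves. PF4, platelet factor 4, had 223.0 to 485.9 CPM (median 316.2) in H-F and 74.3 to 326.4 CPM (median 205.3) in J calves (log2 difference -0.82, SE 0.26, QL adjusted p = 0.0541), and it was lost without J calf 57. GP5, a glycoprotein of the von Willebrand factor receptor complex, and TREML1, a receptor of platelet granules, were decreased by 1.85 and 1.14. PDGFA, a platelet-derived growth factor chain, was increased, from a range of 1.08 to 2.74 CPM (median 2.20) to one of 2.74 to 3.93 CPM (median 3.43), a log2 difference of 0.76 (SE 0.19, QL adjusted p = 0.0261). Other platelet genes, such as MYL9 and PPBP, had log2 differences of -0.38 and -0.55 and did not pass the test (QL adjusted p = 0.101 and 0.158).

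The 4 matched endothelial members had 3 decreases, of CALCRL, CDH5 and VWF, and 1 increase, of JAM2, a junctional adhesion molecule (log2 difference 1.99, SE 0.52, QL adjusted p = 0.0275). VWF, which megakaryocytes also make, had a median of 44.7 CPM in H-F and 24.6 CPM in J calves (log2 difference -0.76, SE 0.22, QL adjusted p = 0.0418), and it was not called with all 45 libraries and no replicate block. Since the platelet sum was lower in J calves too, the share of platelets in the difference of VWF was not tested. CDH5, the cadherin of endothelial junctions, was near 1 CPM and was lost without any 1 of H-F calves 33, 25, 48 and 32 or J calves 13, 57, 77 and 9.

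Few members of the other lists could be matched. For lipid handling 2 of 3 matched genes were decreased, LPL and MGLL, a monoglyceride lipase that was lost with limma-voom and in 10 of the 15 fits that left out 1 calf, and PPARG, with a log2 difference of -0.58, missed the fold threshold. For the glucocorticoid response all 3 matched genes were decreased, namely IL1R2, PTX3 and CDKN1A, a cell cycle inhibitor with medians of 23.3 CPM in H-F and 11.97 CPM in J calves (log2 difference -0.79, SE 0.18, QL adjusted p = 0.0189). CDKN1A was also the 1 matched gene of the cell cycle list. For erythroid cells the 1 matched gene, XK, did not pass the test (QL adjusted p = 0.187), and 0 of 30 T cell symbols were matched, so these cells could not be described.

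Several of the largest differences came from genes with a low level in some calves and a high level in others of the same breed. PRSS2, which encodes a trypsin, had 25.5 to 77.3 CPM in H-F calves 25, 20, 48, 49 and 56, 2.64 to 5.50 CPM in H-F calves 32, 33 and 27, and 0.412 to 1.46 CPM in J calves (log2 difference -5.11, SE 0.79, QL adjusted p = 0.00486). LTBP4, a binding protein of latent transforming growth factor beta, had 16.3 to 21.1 CPM in H-F calves 48, 49 and 20 and 0.195 to 0.852 CPM in the other H-F calves. The J calves lay within 0.217 and 0.647 CPM, so that the fold of LTBP4 (log2 difference -4.11, SE 1.07, QL adjusted p = 0.0270) described these 3 H-F calves, and limma-voom did not call it (adjusted p = 0.300), nor did the fit with calf as a replicate block (adjusted p = 0.191). SLC29A4, a monoamine transporter, had 1.99 to 5.13 CPM in H-F calves except calf 33, which had 0.0645 CPM, and 0.0307 to 0.186 CPM in J calves except calf 57, which had 1.86 CPM. ENSBTAG00000031825, which has no symbol in the sources used here, had 0.514 to 6.61 CPM in H-F calves and was at 0 in 5 of the 7 J calves and at 0.249 and 0.312 CPM in the others (log2 difference -5.14, SE 0.76, QL adjusted p = 0.00425).

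Among the increased genes the largest fold belonged to ENSBTAG00000038652, also without a symbol, and a single calf set its size. It had 0.900 to 8.94 CPM in H-F calves, 6.74 to 19.1 CPM in 6 J calves and 409.1 CPM in J calf 6. The log2 difference was 3.72 with that calf (SE 0.92, QL adjusted p = 0.0225) and 1.23 without it (QL adjusted p = 0.0350), and limma-voom did not call it with all 7 J calves (adjusted p = 0.135). SERPINB4, a serine protease inhibitor, had 0.0279 to 1.07 CPM in H-F calves, 4.74 to 8.41 CPM in J calves 57, 6 and 7 and 0.147 to 1.497 CPM in the other J calves (log2 difference 2.73, SE 0.78, QL adjusted p = 0.0379), and limma-voom did not call it either, with or without calf as a replicate block.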

How the data were processed

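Blood was collected in RNA-stabilising tubes, and poly(A) RNA was sequenced as paired end reads from libraries whose kit does not mark strand, so overlapping genes cannot be told apart. The deposited values are read counts per Ensembl gene, which the authors made by aligning to UMD3.1 with STAR, keeping uniquely mapped reads with few mismatches, and counting with HTSeq in union mode after a check with FastQC 0.10.0. STAR and HTSeq versions and the strand setting were not given in the sources used here. Each of the 48 columns matched a sample. The table holds 24616 genes and 92 spike-in sequences, which were left out.

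Genes over 1 CPM in at least 8 of the 45 libraries of 15 calves were kept (12677). The d -14 libraries were fitted alone with TMM factors (0.972 to 1.029) in edgeR 4.0.16 (R 4.3.3), with the quasi-likelihood test. Only these days were fitted because libraries of 1 calf are not independent (consensus correlation 0.441). DEG differed at least 1.5-fold at a Benjamini-Hochberg adjusted p under 0.1. CPM used TMM library sizes. CPM is not scaled to gene length, so levels are compared between calves and not between genes. The biological coefficient of variation was 0.174, so for well-counted genes the spread between calves and not counting error limited precision. For genes with few reads in a calf, such as those well under 1 CPM, counting error limited it too. The removed J calf, 85, was inferred from the study's tables of mean expression. The change of the breed difference between days used limma-voom (limma 3.58.1) with a random effect of calf. In counts simulated for this comparison, where 200 of the 12677 genes had a log2 change of 1, the test recovered 92% and called 3 unchanged genes. That change is larger than the median fold of the DEG (1.75 for increased and 1.71 for decreased genes). Recovery of smaller changes was not simulated.

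The members and gene lists were chosen with earlier results of these data known. Symbols came from the study's tables of called genes (694 of 800 identifiers), where altered symbols were corrected, and no sequence is shown. Each list symbol was matched to 1 identifier, so any other gene that the study annotates with the same symbol did not enter the list counts. The values of a few genes are not reported here. Genes were named as the 12 with a symbol and the smallest p in each direction, up to 6 called members of each list by fold in each direction, up to 3 uncalled members by level, and the 5 largest folds and 5 highest levels in each direction. Alternatives were the exact test, DESeq2 1.42.0, limma-voom, RLE factors, library totals, other filters and thresholds, all 16 calves, each calf left out, and all 45 libraries with or without calf as a block. Figures and tables used Python 3.11.15 and matplotlib 3.10.9.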

Additional observations from a re-analysis of the deposited data

Results flagged for a closer look

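Among 88 groups of calves examined (the named genes with the smallest p, largest fold or highest level, and 4 properties of the libraries, in each breed), 11 held a calf that stood apart from its group by Dixon's ratio, the gap to the nearest calf over the range. Chance gives about 1 in 20. In H-F calves these were calf 27, the highest for ADGRA3 (ratio 0.571), calf 33, the lowest for SLC29A4 (0.750), and calf 32, the lowest for ENSBTAG00000038652 (0.537). In J calves they were calf 57, the highest for SLC29A4 (0.676) and ENSBTAG00000011818 (0.693), and calf 6, the lowest for KCTD11 (0.621) and BACH2 (0.694) and the highest for ENSBTAG00000038652 (0.747). J calf 77 had the highest share of spike-in counts (0.770) and the most genes with a count (0.586) among J calves, and H-F calf 49 had the most genes with a count among H-F calves (0.530).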

How the results depend on the processing

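The number of DEG at d -14 was 531 and ranged from 390 to 621 when each calf was left out in turn (168 to 249 increased and 217 to 384 decreased). It was 597 with the exact test, 601 with DESeq2, 556 with limma-voom, 652 with all 16 calves and 520 with all 45 libraries. The H-F and J calves are different animals, so no number pairs them, and calf as a replicate block can enter only when all days are fitted, where it gave 596 DEG (limma-voom). Without a fold-change threshold the count was 2472 (1120 increased and 1352 decreased), and with at least 2-fold 147 (68 and 79), as these thresholds imply. The numbers of genes without overlap, 56 higher and 87 lower in J calves, became 125 and 47 with library totals alone, and ranged from 57 to 140 and from 90 to 157 when each calf was left out, with fewer calves to overlap. Both numbers moved by over 1.5 times without any 1 of H-F calves 27 and 56 or J calves 6, 77 and 7, and the first also without J calf 60. Of the 531 DEG, 278 were called in all 26 alternative fits (122 increased and 156 decreased), and 65 of the 102 named DEG were. None of the 102 named DEG changed direction in any alternative. Genes near 1 CPM are the least precise.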
